A study of Mus musculus with 4 samples.

Results

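The 10 genes described here are known or proposed targets of the hypoxia-inducible factors (HIF) whose products act at mitochondria or in acid and stress handling: Ndufa4l2, Bnip3, Bnip3l, Higd1a, Fam162a, Ak4, Ankrd37, Car12, Selenbp1 and Ndrg1. They were found in the count table by Ensembl gene ID through GENCODE symbols, and all 10 were among its 55401 gene rows. The list was chosen by fold changes between untreated and degron libraries that were already known, so the values of these genes in that comparison are a description and no p-value is given for them. RNA was sequenced in 4 libraries of mouse embryonic stem cells whose ZBTB21, a BTB zinc finger transcription factor, carries an auxin-inducible degron, a tag that leads to protein destruction when the auxin indole acetic acid (IAA) is present. Both groups came from this tagged line, which was built by genome editing in cells that carry OsTIR1, the plant protein that recognises the tag, and was selected as clones. The untreated group (2 libraries) was compared with the degron group (2 libraries), which was given doxycycline (1 µg/ml, 24 h) followed by IAA (500 µM, 24 h). All cells were cultured with LIF, CHIR99021 and PD0325901. Whether untreated cells received doxycycline, and the oxygen level of the cultures, were not given in the sources used here, and no library with IAA and untagged ZBTB21 was analysed here.

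HIF is a transcription factor made of an oxygen-regulated alpha subunit and the stable partner ARNT. When oxygen is plentiful, prolyl hydroxylases mark the alpha subunit, VHL binds it and it is degraded. When oxygen is short, the subunit persists and the complex binds a short element, the hypoxia response element, near genes that shift energy production from mitochondria to glycolysis. Its mitochondrial targets lower respiration, exchange subunits and remove mitochondria by mitophagy, and its membrane targets export acid and hydrate carbon dioxide. The data are RNA counts, so HIF binding and the place of the proteins in the cell were not measured.

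The promoter sequences of the genes were examined for the core of this element, because they show which of the genes carry it close to their start site. RefSeq (GRCm38.p6) windows from 250 bases before to 50 bases after a start site were held for 7 of the 10 genes, and no window was used for Ndufa4l2, Bnip3l and Ndrg1. The cores ACGTG and GCGTG were searched on both strands. At least 1 core was present in 6 of the 7 genes (85.7%) and in 46.7% of all 27025 genes with a window. ACGTG alone was present in the same number of the 7 genes, 6, and in 21.8% of all genes. The 7 genes had 10 windows in all, 4 of them for Ak4 and partly overlapping, with a median GC content of 68.2% against 52.7% over all windows, and both cores hold a CG pair. The core ACGTG lies within the palindrome CACGTG, which other factor families also bind, in Bnip3 and in 1 window of Ak4, and CACGTG was present in 8.09% of all genes. The 250 bases before the start site are shown for 4 genes, 3 of them among the larger falls (Bnip3, Ankrd37, Fam162a) and 1 that was not called (Ak4, the most upstream of its 4 start sites), with the cores of either strand in capitals. The stretches are chr7:138909507-138909756 (minus strand) for Bnip3, chr8:45999851-46000100 (minus strand) for Ankrd37, chr16:36071562-36071811 (minus strand) for Fam162a and chr4:101419039-101419288 (plus strand) for Ak4.
Bnip3: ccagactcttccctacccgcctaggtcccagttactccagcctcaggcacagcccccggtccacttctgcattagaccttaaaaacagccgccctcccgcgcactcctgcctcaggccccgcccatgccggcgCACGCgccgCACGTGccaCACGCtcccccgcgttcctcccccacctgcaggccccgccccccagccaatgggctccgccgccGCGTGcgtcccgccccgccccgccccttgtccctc
Ankrd37: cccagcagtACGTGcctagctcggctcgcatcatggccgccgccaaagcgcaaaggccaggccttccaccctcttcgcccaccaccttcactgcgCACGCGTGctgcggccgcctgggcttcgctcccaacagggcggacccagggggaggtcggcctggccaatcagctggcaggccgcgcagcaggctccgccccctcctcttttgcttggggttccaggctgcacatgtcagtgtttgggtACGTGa
Fam162a: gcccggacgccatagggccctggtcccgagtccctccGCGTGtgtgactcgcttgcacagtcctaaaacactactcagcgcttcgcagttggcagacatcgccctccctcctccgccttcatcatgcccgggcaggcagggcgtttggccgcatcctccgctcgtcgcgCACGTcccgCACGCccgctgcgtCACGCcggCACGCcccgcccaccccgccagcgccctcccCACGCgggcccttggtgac
Ak4: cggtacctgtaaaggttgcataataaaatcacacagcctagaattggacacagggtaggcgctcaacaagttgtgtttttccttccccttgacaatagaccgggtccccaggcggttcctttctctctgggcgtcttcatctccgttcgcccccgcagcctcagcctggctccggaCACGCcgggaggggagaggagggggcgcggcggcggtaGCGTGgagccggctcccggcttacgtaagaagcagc

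In Bnip3, 5 matches were present, of which 4 began between 117 and 99 bases before the start site, with the palindrome flanked by a GCGTG on the other strand at each side. Fam162a had the largest number of matches, 6, of which 5 were on the other strand and began between 81 and 19 bases before its start. Ankrd37 had 4 matches, and its last ACGTG began 6 bases before the start. Higd1a and Selenbp1 had 3 matches each, and the first window of Ak4 had 2, both GCGTG. The ACGTG matches of Ak4 lay only in the most downstream of its 4 windows, whose sequence is not shown. Car12 had none, which says only that these letters are not in its window. The map of matches shows these positions. A match is a description of sequence and no measurement of binding, and since the genes were listed as HIF targets, a core near their start is no separate result.

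**Figure D1:**
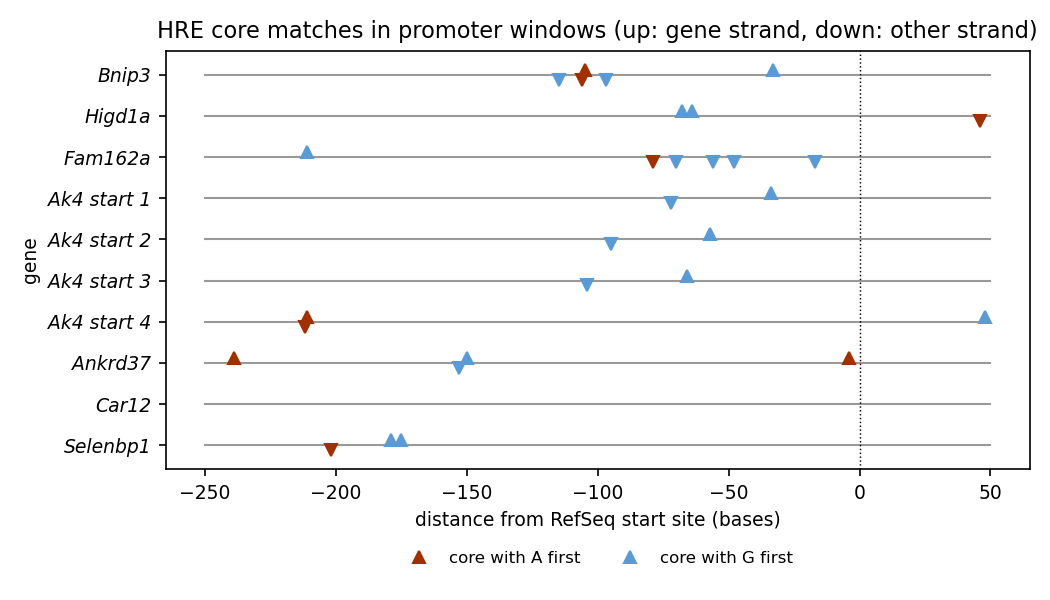
Positions of the cores ACGTG (dark red) and GCGTG (blue) in the 10 RefSeq windows of 7 genes, in bases from the start site, with triangles pointing up for the strand of the gene and down for the other strand. Bnip3, Fam162a and Ankrd37 hold 5, 6 and 4 matches, and Car12 holds none.

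After the degron treatment the RNA of 8 of these genes was lower and that of none was higher. The changes ranged from a loss of nearly all Ndufa4l2 RNA to no called change of Ak4. Levels are CPM, counts scaled to a common library size. A gene is said to have risen, fallen or been called where edgeR's quasi-likelihood test gave a Benjamini-Hochberg adjusted p under 0.05 over all 13916 genes tested. Of the 10 genes, 9 passed the low-count filter, and Car12 did not. Ndufa4l2 and Ankrd37 passed it through their untreated level alone, so the counts over those that passed are no support for a direction. Of the 9, 8 fell and 0 rose, and 0 were higher at an unadjusted p under 0.05. Over all tested genes 21.6% fell and 22.2% rose. Both untreated libraries lay above both degron libraries for all 10 genes, and for 34.4% of all tested genes. In a design of this size the smallest two-sided p of an exact permutation test is 0.333. In DESeq2, which gave an adjusted p to all 9, 7 of the 9 were lower, beside 11.2% of the genes with an adjusted p, and the gene not called beyond Ak4 was Selenbp1. Against a minimum change of 1.5-fold, 4 of the 9 were lower (Ndufa4l2, Bnip3, Ankrd37 and Fam162a), beside 1.72% of tested genes. The median log2 fold change of the 9 was -0.82, and that of all tested genes 0.01. In bulk RNA, fewer cells of a type and less RNA per cell cannot be told apart, and without a spike-in these levels are relative to the rest of each library.

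**Figure D2:**
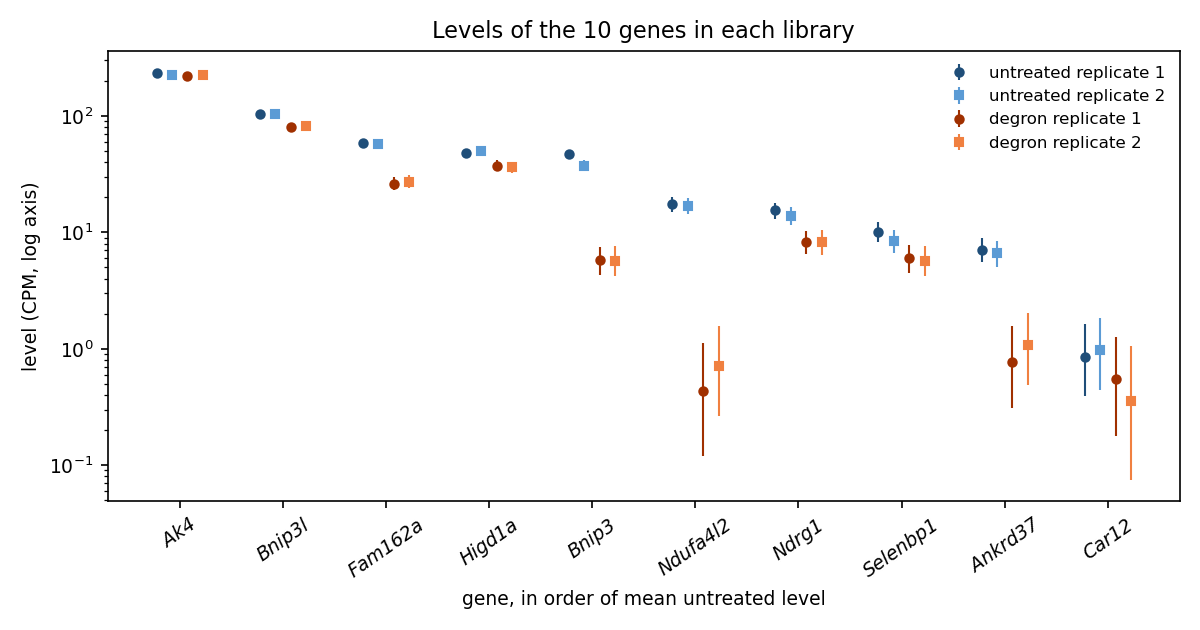
Level of each of the 10 genes in CPM (log axis) in the 2 untreated (blue) and 2 degron (orange) libraries, with bars for exact Poisson 95% intervals, which cover counting error only. Ndufa4l2 fell from about 17 CPM to under 1 CPM, whereas Ak4 stayed between 219 and 233 CPM in the 4 libraries.

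Among the genes tied to the respiratory chain, Ndufa4l2 changed most. It encodes a mitochondrial protein related to the complex IV subunit NDUFA4 and is known to lower oxygen use in hypoxia. Ndufa4l2 (ENSMUSG00000040280.10, chromosome 10, 127514967 to 127517154, plus strand, mm10) had 185 and 156 counts in the untreated and 4 and 6 counts in the degron libraries, or 17.5 and 16.9 CPM against 0.436 and 0.717 CPM. The degron levels were thus far below both untreated levels and rested on few reads. The log2 fold change was -4.88 ± 0.28 (SE), or 3.39% of the untreated level, and it was the second lowest of all tested genes (rank 2 of 13916). It was -5.26 without degron replicate 2 and -4.56 without degron replicate 1. Its exons share 32 of 1095 bases with Shmt2 on the opposite strand, which was at 296 CPM without and 437 CPM with degron induction. The sources used here do not state whether counting used strand, so the part of such overlaps in these values was not tested.

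The relative of this gene that most cells use, Ndufa4, changed far less. It had untreated levels of 134 and 145 CPM and degron levels of 116 and 119 CPM, which gave -0.25 ± 0.06 (SE) on the log2 scale (edgeR adjusted p = 2.73e-04). Per exonic length, the Ndufa4l2 level was 0.165 and 0.147 of the Ndufa4 level in the untreated libraries and 0.00475 and 0.00761 of it in the degron libraries. The ratio was therefore lower in both degron libraries, by more than the gap between replicates. Higd1a, a small inner membrane protein that binds cytochrome c oxidase, fell modestly. Higd1a (ENSMUSG00000038412.8, chromosome 9, 121848563 to 121858362, minus strand) had untreated levels of 48.0 and 50.1 CPM and degron levels of 37.3 and 36.2 CPM, a log2 fold change of -0.41 ± 0.08 (SE). Its relative Higd2a was not called, at 59.6 and 56.2 CPM against 56.9 and 56.7 CPM (-0.03 ± 0.07, SE). Higd1a shares 683 of 3040 exonic bases with the antisense gene Gm47112, which was at 0.203 and 0.119 CPM.

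The pair of outer membrane mitophagy receptors fell by different amounts. BNIP3 and BNIP3L, also called NIX, tether mitochondria to the forming autophagosome, and NIX is known for clearing mitochondria from maturing red blood cells. Bnip3 (ENSMUSG00000078566.8, chromosome 7, 138890836 to 138909519, minus strand) had 497 and 346 counts in the untreated and 53 and 48 counts in the degron libraries, or 47.1 and 37.5 CPM against 5.78 and 5.73 CPM. The untreated replicates differed from each other by more than counting error (95% Poisson intervals of 43.0 to 51.4 CPM and 33.7 to 41.7 CPM), whereas the degron replicates were nearly equal. The log2 fold change was -2.88 ± 0.14 (SE), or 13.6% of the untreated level. Bnip3l (ENSMUSG00000022051.15, chromosome 14, 66985239 to 67008877, minus strand) had untreated levels of 104 and 103 CPM and degron levels of 81.2 and 82.2 CPM, a log2 fold change of -0.34 ± 0.06 (SE). Bnip3 thus started below Bnip3l and ended further below it. Per exonic length, the Bnip3 level was 0.771 and 0.619 of the Bnip3l level in the untreated libraries and 0.121 and 0.119 of it in the degron libraries. Bnip3 shares 504 of 2265 exonic bases with the antisense gene Gm45507, which had 0 counts in the 4 libraries.

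Other receptors and adaptors of mitophagy did not move together. Of 12 listed genes 11 were tested, and 2 rose, 2 fell and 7 were not called (median log2 fold change 0.09). Over all tested genes 22.2% rose and 21.6% fell, so these counts are not particular to mitophagy genes. Sqstm1, which encodes the autophagy adaptor p62, rose from 264 ± 6.75 to 466 ± 42.3 CPM (SD, n = 2). Pink1, the kinase that marks damaged mitochondria, rose from 15.4 ± 0.248 to 26.5 ± 2.50 CPM (SD, n = 2). Calcoco2, the gene of the adaptor NDP52, fell from 160 ± 11.0 to 94.9 ± 3.32 CPM, and Phb2, an inner membrane receptor, fell, on the log2 scale, with a value of -0.24 ± 0.05 (SE). The edgeR adjusted p of these genes was 3.11e-21, 5.71e-08, 1.80e-18 and 1.19e-04 in this order. Sqstm1 shares 580 of 3356 exonic bases with Mrnip on the opposite strand, which had 11.4 and 14.3 CPM. Fundc1, a receptor used in hypoxia, had a log2 fold change of -0.31 ± 0.13 (SE) and was not called, at an edgeR adjusted p of 0.0534, just over the threshold. It was called lower with RLE scaling, the stricter filter, the replicate block and protein-coding genes alone (0.0447, 0.0488, 0.0392 and 0.0476). Nbr1, also not called, was called higher with library sizes alone and the replicate block (edgeR adjusted p of 0.0280 and 0.0285). Optn was not called (0.29 ± 0.15, SE), and its log2 fold change was 0.51 without untreated replicate 1.

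Fam162a and Ak4 were the most abundant of the genes per length and differed in their change. FAM162A is a mitochondrial protein tied to cell death in hypoxia, and AK4 is an adenylate kinase of the mitochondrial matrix. Fam162a (ENSMUSG00000003955.8, chromosome 16, 36043761 to 36071594, minus strand) had untreated levels of 58.2 and 57.8 CPM and degron levels of 26.3 and 27.3 CPM, a log2 fold change of -1.11 ± 0.08 (SE). The replicates of each group were close, and 46.2% of the untreated level was left. Fam162a shares 168 of 850 exonic bases with the oppositely oriented Wdr5b, which had 0.799 and 1.23 CPM. Ak4 (ENSMUSG00000028527.18, chromosome 4, 101419277 to 101466995, plus strand) had untreated levels of 233 and 226 CPM and degron levels of 219 and 225 CPM. The groups did not overlap, but the distance between the nearest libraries, untreated replicate 2 and degron replicate 2, was smaller than that between replicates. The log2 fold change of Ak4 was -0.05 ± 0.05 (SE) and was not called by edgeR, DESeq2 or limma-voom.

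The relatives of Ak4 moved in both directions. Ak3, the other matrix enzyme, rose from 11.3 ± 0.780 to 16.4 ± 0.567 CPM (SD, n = 2), and Ak7 rose with a log2 fold change of 0.65 ± 0.15 (SE). The cytosolic Ak1 fell from 63.6 ± 2.71 to 36.0 ± 1.25 CPM (SD, n = 2). Ak6 fell as well (-0.80 ± 0.10, SE), but it shares 1564 of 2769 exonic bases with Taf9 on the same strand, and its value is uncertain. Ak8 was not called. DESeq2 called neither Ak3 nor Ak7. Per exonic length, Ak4 was at 13.2 and 14.2 times the Ak3 level in the untreated and at 9.17 and 8.97 times that level in the degron libraries. Ak3 shares 430 of 3120 exonic bases with Cdc37l1 on the opposite strand, which also rose (0.22 ± 0.06, SE).

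Ankrd37 had a fall of the same size as Bnip3 at a far lower level. ANKRD37 is a small ankyrin repeat protein known as a HIF target in human cells. Ankrd37 (ENSMUSG00000050914.16, chromosome 8, 45996902 to 46005707, minus strand) had 75 and 61 counts in the untreated and 7 and 9 counts in the degron libraries, or 7.10 and 6.61 CPM against 0.764 and 1.07 CPM. The 2 groups were far apart, and the degron counts were few. The log2 fold change was -2.89 ± 0.32 (SE), beside -2.88 ± 0.14 (SE) for Bnip3, and these values did not differ beyond their errors. Its exons share 57 of 1539 bases with Ufsp2 and 349 with Lrp2bp, both on the opposite strand. Ufsp2 had 28.5 and 29.1 CPM and was not called, and Lrp2bp had 0.102 and 0.0597 CPM.

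Car12, the gene of this group that acts on pH, was close to the detection limit. Carbonic anhydrase XII is a membrane enzyme whose active site faces outward and that converts carbon dioxide and water to bicarbonate and protons. Car12 (ENSMUSG00000032373.15, chromosome 9, 66713686 to 66766845, plus strand) had 9 and 9 counts in the untreated and 5 and 3 counts in the degron libraries, or 0.852 and 0.976 CPM against 0.545 and 0.358 CPM. The Poisson intervals of the 4 libraries overlapped. The pooled counts, 18 against 8, gave a degron to untreated ratio of 0.501 with an exact 95% interval of 0.189 to 1.21, which covers counting error only, so no difference was detectable at this depth.

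Selenbp1 and Ndrg1 fell to 62.9% and 56.5% of their untreated levels. SELENBP1 is known as a methanethiol oxidase, and NDRG1 is a cytoplasmic stress protein induced by low oxygen and by iron removal. Selenbp1 (ENSMUSG00000068874.13, chromosome 3, 94933056 to 94944758, plus strand) had 107 and 78 counts against 55 and 48 counts, or 10.1 and 8.46 CPM against a mean of 5.87 ± 0.189 CPM (SD, n = 2). Its log2 fold change was -0.67 ± 0.19 (SE). The call of Selenbp1 was lost without untreated replicate 1 (log2 fold change -0.53) and in DESeq2 (-0.67), which was so for no other of the 8 falls. Its close copy Selenbp2 had 2, 0, 2 and 1 counts. Ndrg1 (ENSMUSG00000005125.13, chromosome 15, 66929318 to 66969640, minus strand) had untreated levels of 15.4 and 13.8 CPM and degron levels of 8.29 and 8.24 CPM, a log2 fold change of -0.82 ± 0.16 (SE). It shares 419 of 6596 exonic bases with Gm17035 and 137 with Gm2895 on the opposite strand, which were at 0 and at most 0.0473 CPM.

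In the families of these genes, relatives outside the list also changed. Ndrg2 fell from 30.6 ± 2.14 to 6.74 ± 0.269 CPM (SD, n = 2). Its log2 change, -2.18 ± 0.14 (SE; edgeR adjusted p = 7.64e-23), was larger in size than that of Ndrg1. Ndrg4 fell by less (-0.32 ± 0.11, SE), and Ndrg3 was not called (-0.11 ± 0.09, SE). Among the carbonic anhydrases, Car6, the secreted form, rose from 1.93 ± 0.184 to 7.61 ± 0.728 CPM (SD, n = 2, edgeR adjusted p = 1.58e-09). The cytosolic Car2 fell from 12.1 and 11.9 CPM to 8.73 and 8.84 CPM, and Car8 fell, on the log2 scale, with a value of -0.49 ± 0.20 (SE). Car13, the most abundant of them in CPM, was at 24.6 and 25.4 CPM against 27.6 and 27.6 CPM and was not called, and neither were Car5a, Car5b, Car7 and Car11. Car9, the membrane enzyme best known as a hypoxia marker, had 24 and 16 counts in the untreated and 14 and 14 counts in the degron libraries and was not called (-0.34 ± 0.36, SE). In all, 20 of 32 listed relatives were tested. Of the 20, 8 fell, 3 rose and 9 were not called, beside 21.6% lower and 22.2% higher over all tested genes. The median log2 fold change of the relatives was -0.28. DESeq2, which gave an adjusted p to 18 of them, called 6, 5 lower and 1 higher. It called none of Ndrg4, Car2 and Car8. These calls were also lost in some fits without 1 library, which have fewer libraries to test with. The log2 fold changes in those fits stayed near those of all 4 libraries, -0.32, -0.45 and -0.49. The call of Ndrg4 was lost without degron replicate 2 (-0.28), that of Car2 without untreated replicate 1 (-0.45), degron replicate 1 (-0.44) or degron replicate 2 (-0.46), and that of Car8 without any 1 of the 4 libraries (-0.51 to -0.47).

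**Figure D3:**
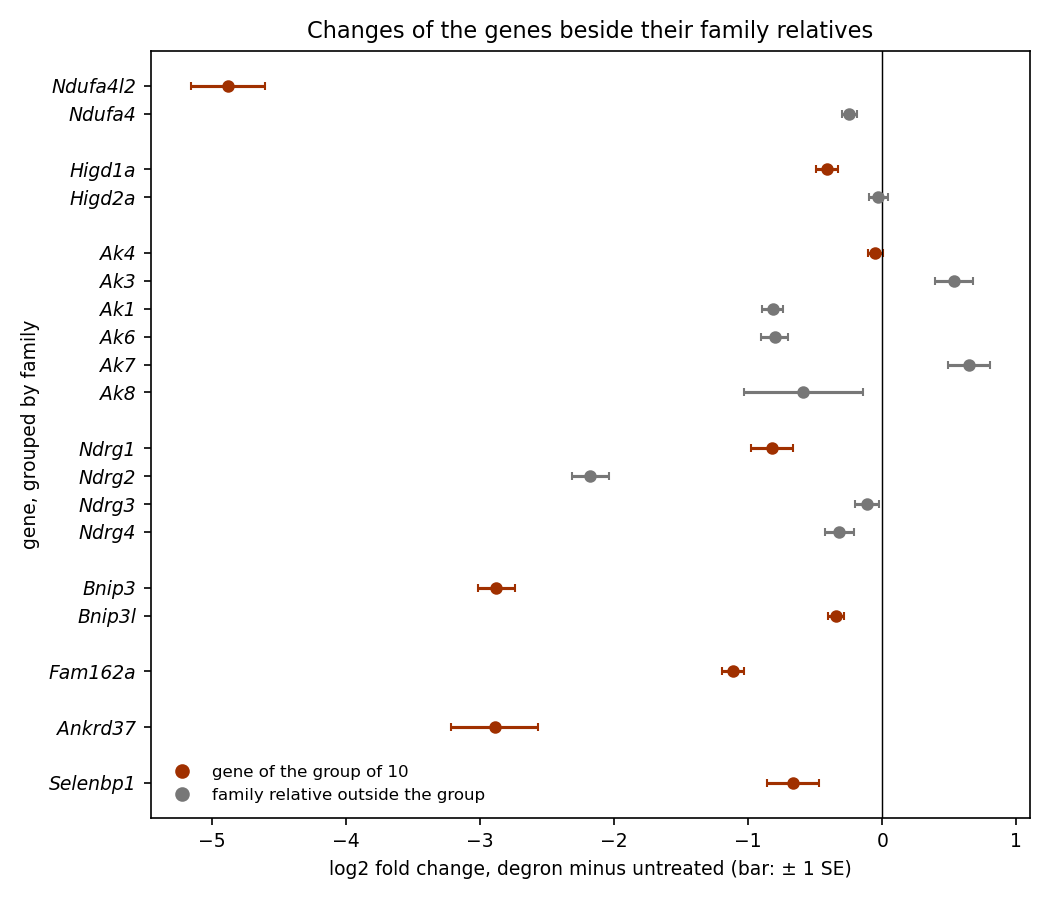
Log2 fold change (degron minus untreated, with bars of 1 SE) of the tested genes of the group (red) and of some of their family relatives outside it (grey); carbonic anhydrases are not drawn. Ndufa4l2 (-4.88) lies far below Ndufa4 (-0.25), Bnip3 (-2.88) below Bnip3l (-0.34), and Ndrg2 (-2.18) below Ndrg1 (-0.82).

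The order of the 10 genes changed between the groups. CPM per kilobase of exon allows an approximate comparison of genes. The length is that of all annotated exons of a gene, and the isoforms present in these cells were not measured. The SD does not cover this. On this scale untreated cells had the highest level for Fam162a (68.2 ± 0.374, SD, n = 2), followed by Ak4 (49.5 ± 1.06) and Bnip3l (26.9 ± 0.119). Bnip3 (18.7 ± 2.98), Higd1a (16.1 ± 0.484) and Ndufa4l2 (15.7 ± 0.391) came next and did not differ beyond their spread. Ankrd37 (4.46 ± 0.224), Selenbp1 (4.09 ± 0.521), Ndrg1 (2.21 ± 0.179) and Car12 (0.120 ± 0.0115) were lower, and Ankrd37 and Selenbp1 did not differ beyond their spread. In degron cells Ak4 was highest (47.8 ± 0.901), followed by Fam162a (31.6 ± 0.878), Bnip3l (21.2 ± 0.183) and Higd1a (12.1 ± 0.262). Selenbp1 (2.58 ± 0.0833) and Bnip3 (2.54 ± 0.0155) were then alike, above Ndrg1 (1.25 ± 0.00547), and Ankrd37 (0.597 ± 0.143) and Ndufa4l2 (0.526 ± 0.181) did not differ beyond their spread. Car12 (0.0595 ± 0.0174) was lowest in both groups. In CPM summed over the 10 genes, Ak4 made up 43.1% and 43.4% in the untreated and 56.8% and 57.3% in the degron libraries. Without Ak4 the untreated sums were 308 and 295 CPM and the degron sums 167 and 168 CPM.

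Other genes known as HIF targets moved in both directions. From a list of 32 such genes 27 were tested, of which 15 fell, 7 rose and 5 were not called. The list was chosen with earlier results of these data known. Cox4i2, among the 15 falls, passed the low-count filter through its untreated level alone. These counts are therefore a description and no support for a direction. The median log2 fold change of the 27 was -0.51. Over all tested genes the median was 0.01, and 21.6% fell and 22.2% rose. The smallest p-values among the falls were those of Slc16a3, Ldha, Pgk1 and Pdk1, which export lactate, make it, generate ATP in glycolysis and block pyruvate entry into the citric acid cycle. Pdk1 had untreated levels of 65.0 and 57.6 CPM and a degron level of 24.7 ± 1.72 CPM (SD, n = 2), or -1.31 ± 0.09 (SE) on the log2 scale. Its 2 degron libraries lay far below both untreated ones. The smallest p-values among the rises were those of Vegfa, Stc2, Ddit4 and Gys1. Vegfa, the angiogenic growth factor, had untreated levels of 88.7 and 77.6 CPM and degron levels of 146 and 141 CPM. Stc2, a secreted glycoprotein that is also induced by endoplasmic reticulum stress, had 17.3 and 16.5 CPM against 30.7 and 39.9 CPM. Gys1, muscle-type glycogen synthase, shares 310 of 4789 exonic bases with Ruvbl2 on the opposite strand. Among mitochondrial targets of the list, Cox4i2, the hypoxia-linked isoform of a complex IV subunit, fell from 2.99 ± 0.0708 to 0.958 ± 0.342 CPM (SD, n = 2), with 31, 28, 11 and 6 counts, and was not called by DESeq2. Lonp1, the matrix protease, rose (0.25 ± 0.05, SE). Cox4i2 and Lonp1 were named after their values were seen. DESeq2 called 17 of the 27 tested genes of this list, 12 lower and 5 higher. Of all 13295 genes with a DESeq2 adjusted p, 1484 were called lower and 1440 higher.

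**Figure D4:**
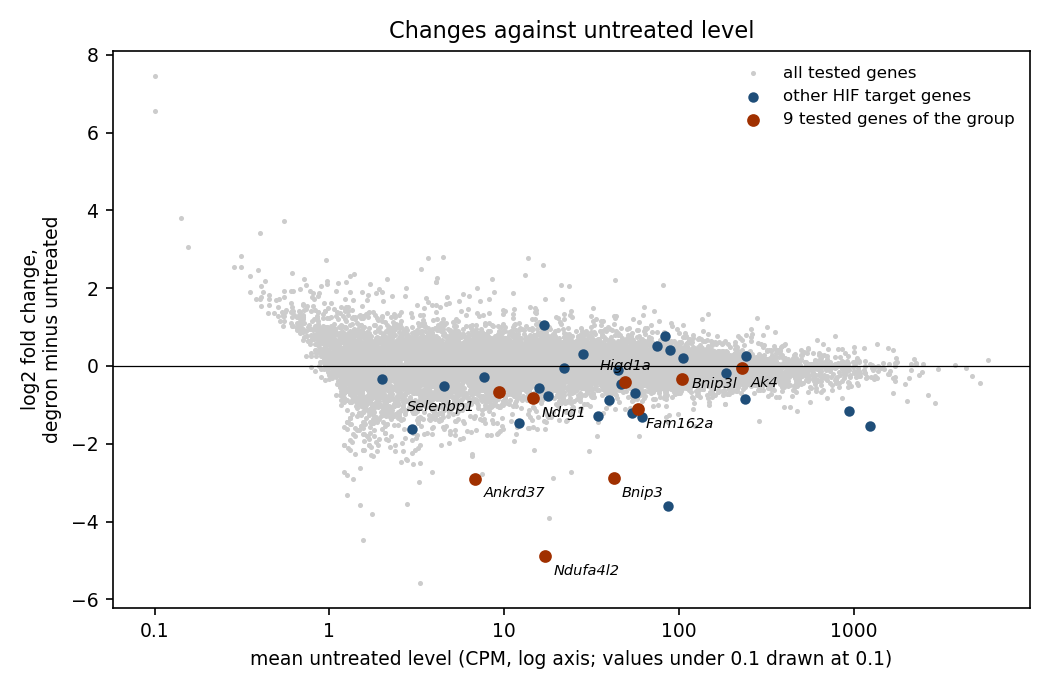
Log2 fold change (degron minus untreated) against mean untreated level in CPM (log axis) for all 13916 tested genes (grey), the 27 tested other HIF targets (blue) and the 9 tested genes of the group (red). Ndufa4l2, Ankrd37 and Bnip3 lie among the lowest values at their levels, and Ak4 lies at -0.05.

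The genes that encode HIF and its regulators gave a mixed picture. Of 10 tested genes 3 fell, 2 rose and 5 were not called, beside 21.6% lower and 22.2% higher over all tested genes. With library sizes alone 4 rose, with Arnt and Hif1an added, and 3 fell. Hif1a, an alpha subunit, had untreated levels of 94.9 and 96.9 CPM and degron levels of 118 and 119 CPM, which gave 0.30 ± 0.06 (SE) on the log2 scale (edgeR adjusted p = 1.48e-05). Hif1a RNA was thus higher in both degron libraries. Epas1, the other main alpha subunit, had 27.9 and 22.4 CPM against 27.5 and 24.0 CPM and was not called, and the groups overlapped. Arnt was not called (0.11 ± 0.06, SE). Egln3 and Egln1, prolyl hydroxylases that are themselves HIF targets, fell from 12.2 ± 1.27 to 4.37 ± 0.769 CPM and from 56.4 ± 0.540 to 34.9 ± 2.69 CPM (SD, n = 2). Both are also counted among the other HIF targets above. Hif3a fell (-0.76 ± 0.19, SE), and Egln2, another hydroxylase, rose by a smaller amount (0.20 ± 0.07, SE). DESeq2 called 3 of these genes and neither Hif3a nor Egln2, and the call of Egln2 was also lost without untreated replicate 1 and without degron replicate 2 (log2 fold changes of 0.13 and 0.17).

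Genes of proton and bicarbonate transport, the setting in which Car12 works, were split evenly. Of 19 listed genes 14 were tested, and 5 fell, 5 rose and 4 were not called (median log2 fold change 0.01). All tested genes were also split nearly evenly, with 21.6% lower and 22.2% higher. Slc16a3, the lactate and proton exporter, which is also counted among the other HIF targets, fell from 87.0 ± 8.26 to 7.22 ± 1.11 CPM (SD, n = 2). Its family relative Slc16a1 fell far less, from 233 ± 6.43 to 193 ± 2.18 CPM (SD, n = 2), and Bsg, the chaperone of both, by a log2 fold change of -0.22 ± 0.05 (SE). The sodium and proton exchanger gene Slc9a5 fell (-0.61 ± 0.13, SE). Slc4a2, a chloride and bicarbonate exchanger, rose from 17.2 ± 0.931 to 34.9 ± 1.18 CPM (SD, n = 2), and it shares 1141 of 8322 exonic bases with Fastk on the opposite strand, which also rose (0.24 ± 0.06, SE). Slc4a11, Slc4a7 and Slc26a6 rose with log2 fold changes of 0.62 ± 0.10, 0.26 ± 0.07 and 0.51 ± 0.15 (SE). The calls of Slc4a7 and Slc26a6 were not made by DESeq2, and each was lost without 1 library (Slc4a7 without untreated replicate 2, 0.13, and Slc26a6 without degron replicate 2, 0.43). The call of Bsg was lost without degron replicate 1 (-0.19).

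Among 16 genes of complex IV, the enzyme that NDUFA4 and HIGD1A bind, 11 fell, 2 rose and 3 were not called. Their median log2 fold change was -0.24. The shares over all tested genes were 21.6% lower and 22.2% higher. Ndufa4 is also counted among the relatives, and Cox4i2 among the other HIF targets. The falls with the smallest p-values were those of Cox7a2 (-0.59 ± 0.06, SE), Cox7b (-0.50 ± 0.06), Cox6b1 (-0.39 ± 0.06) and Cox6c (-0.33 ± 0.06). Each was far smaller than that of Ndufa4l2 and near in size to that of Higd1a. Cox6a2, the subunit isoform of heart and skeletal muscle, had 7 and 4 counts in the untreated and 68 and 65 counts in the degron libraries and is 1 of the 2 rises. It passed the low-count filter through its degron level alone, as Cox4i2, 1 of the 11 falls, did through its untreated level, so these calls had to show a difference and are no support for a direction. Cox5b rose by a log2 fold change of 0.14 ± 0.05 (SE), and its call was lost in DESeq2 and without untreated replicate 1, degron replicate 1 or degron replicate 2 (0.10, 0.15 and 0.15). Among the falls, the call of Cox7a1 was lost in DESeq2 (-0.51) and without degron replicate 1 (-0.36). That of Cox5a was lost without untreated replicate 2 (-0.12) or degron replicate 1 (-0.19), and that of Cox8a without degron replicate 1 (-0.17). Cox4i1, not called in the main fit, was called lower with the replicate block (-0.12). Its log2 fold change without untreated replicate 1 was larger in size, at -0.21.

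The 4 libraries held between 8344408 and 10604451 counts. Replicates correlated over tested genes with Pearson's r of 0.994 in each group, and genes are not independent replicates. Separate cultures are not stated for the replicates, so errors and p-values reflect the spread among these 4 libraries alone, and that spread may be technical. Zbtb21 RNA rose from 59.3 ± 3.41 to 131 ± 2.51 CPM (SD, n = 2), which does not check the labels, since the tag acts on the protein. The 10 embryonic stem cell markers, such as Pou5f1 and Nanog, were all detected and summed to between 6216 and 6356 CPM in the 4 libraries, but single markers moved both ways. Of the 10, 3 rose, 4 fell and 3 were not called, with log2 fold changes from -1.43 for Utf1 to 0.72 for Klf4. Of 10 fibroblast markers 4 had no count (Twist2, Dcn, Lum and Postn), and the sum was 128 to 133 CPM in the untreated and 131 to 140 CPM after induction. For the 9 primitive endoderm markers it was 11.9 to 12.5 CPM against 17.0 to 17.4 CPM, for the 8 neural markers 97.2 to 103 CPM against 82.9 to 93.1 CPM, and for the 8 trophoblast markers 7.21 to 7.73 CPM against 6.47 to 7.84 CPM. The part of such cells in the changes above was not tested.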

How the data were processed

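Poly(A) RNA libraries, by the labels, were sequenced from 2 untreated and 2 degron samples. The study itself writes of total RNA-seq, and its RNA-seq methods do not state how the RNA was selected. The deposited values, raw counts for each gene, were made by the authors with cutadapt 2.6, STAR 2.7.6a (mm10) and featureCounts 1.6.3 on GENCODE release 25, keeping primary alignments without PCR duplicates, as the processing notes of the submitters and the methods of the study state. Removal of duplicates can lower counts of short, abundant genes. The sources used here give no strand setting. Columns were matched to samples by condition and replicate number, and 0 were left over.

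Symbols, positions, exonic lengths and overlaps came from GENCODE release 21 (GRCm38, the same assembly as mm10), which matched 55141 of 55401 gene IDs. The members and lists were chosen with earlier results of these data known. Testing used edgeR 4.0.16 in R 4.3.3 (quasi-likelihood F test on group alone, after filterByExpr and TMM scaling of the counts) and Benjamini-Hochberg adjustment over 13916 genes. The SE is the log2 fold change divided by the square root of F. CPM values use TMM-scaled sizes, except marker sums, which use library totals. The procedure was run on simulated counts with far fewer changed genes than were called here. That run does not check the scaling under such broad change. Every member was named, with up to 4 called genes per list and direction by smallest p, each tested relative of a member except 1 that is not reported here, and Hif1a, Epas1 and Arnt. Some further genes were named with their values in view. The settings tried besides were DESeq2 1.42.0, limma-voom (limma 3.58.1), RLE scaling or none, a filter of 1 CPM in each group mean or none, leaving out each library, the replicate block, protein-coding genes without mitochondrial ones, and a 1.5-fold minimum (glmTreat). Intervals and errors cover counting or library spread only.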

Additional observations from a re-analysis of the deposited data

How the results depend on the processing

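The 9 tested genes of the group kept their direction in all alternatives that gave a value, which were 13 for each except 12 for Ndufa4l2 and Ankrd37, which the stricter filter removed. Leaving out each library in turn gave log2 fold changes from -5.26 to -4.56 for Ndufa4l2, -3.03 to -2.71 for Bnip3, -3.14 to -2.66 for Ankrd37, -1.14 to -1.08 for Fam162a, -0.90 to -0.74 for Ndrg1 and -0.78 to -0.53 for Selenbp1. The count of called members was 7 or 8 in these fits and 6 of 7 with the stricter filter. The replicate numbers are shared by the groups, but replicate differences correlated between the groups with r of only 0.04 across genes, and nothing in the labels ties the numbers to a culture. With the replicate block 8 members and 6645 genes in all were called. DESeq2 called 2924 of 13295 genes with an adjusted p, against 6093 of 13916 in edgeR. It called 6 of 18 relatives of the members, 6 of 14 transport genes and 3 of 10 HIF subunits and regulators. In the other lists it called 17 of 27 other HIF targets, 10 of 16 complex IV genes and 4 of 11 mitophagy genes. Against a minimum of 1.5-fold, a test that small changes cannot pass, 526 of 13916 genes in all were called. They held 4 of 9 members, 2 of 11 mitophagy genes, 3 of 20 relatives and 2 of 14 transport genes. They also held 12 of 27 other HIF targets, 1 of 10 HIF subunits and regulators and 2 of 16 complex IV genes. The sign changed for 6 genes that were not called. With each library left out, Slc4a8 ranged from -0.23 (without untreated replicate 2) to 0.070 (without untreated replicate 1), Hvcn1 from -0.0079 (without untreated replicate 1) to 0.35, Epas1 from -0.11 (without untreated replicate 2) to 0.19, with -0.07 without degron replicate 1, Car5a from -0.0013 (without untreated replicate 2) to 0.46, Car5b from -0.26 to 0.13 (above 0 without untreated replicate 1 or degron replicate 2) and Higd2a from -0.068 to 0.0086 (without untreated replicate 1). Higd2a was at 0.00083 with library sizes alone. The cause was not tested. With library sizes alone 4 HIF subunits and regulators rose in place of 2. Fundc1 was called lower in 4 settings, and Nbr1 was called higher with library sizes alone and with the replicate block. RLE scaling or no scaling moved the median of all genes by less than 0.1 on the log2 scale. Depth limits Car12, and the degron levels of Ndufa4l2 and Ankrd37 rest on fewer than 10 counts per library.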
